A study of Mus musculus with 8 samples.

Results

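The genes described here encode the enzymes that degrade macromolecules inside lysosomes, together with proteins that activate them. The list held 46 genes: cathepsins and other proteases, glycosidases, sulfatases, lipases, phosphatases, a nuclease, and activators such as prosaposin and the sulfatase-modifying factor. A probe set, the group of array probes that reports 1 transcript, was taken for a gene where the platform annotation lists it with that gene's symbol and no other. This gave 98 of 45101 probe sets, for 45 of the 46 genes. Hyal1, a hyaluronidase, has no probe set of its own, since those that report it are shared with another symbol. Of the 98 probe sets, 82 passed the filter on dim signals, which leaves out the 40% of probe sets with the lowest mean over all 8 arrays, and they represent 44 genes. The remaining gene, Ctsf (cathepsin F), had signals of 49, 28, 13 and 5 in the wild-type and 41, 35, 8 and 24 in the knockout samples by its brighter probe set and was not tested.

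The tissue was whole small intestine from mouse fetuses 18.5 days post coitum. RNA of 4 wild-type and 4 Plagl2 knockout samples was hybridised to Affymetrix MOE430 2.0 arrays, 1 per sample. Plagl2 is a transcription factor with zinc fingers, and the series title places it in the metabolism of chylomicrons, the particles that carry absorbed fat. Strain, the design of the deleted allele and whether samples came from separate litters are unknown from the sources used here, so a p-value reflects only how these 8 samples vary, which may be technical. The extraction text of all 8 samples names wild-type tissue, whereas titles and source names separate the genotypes. The brightest Plagl2 probe sets gave 697 to 892 in the wild-type and 1 to 11 in the knockout samples. Wild-type replicate 3 stood apart from the other wild-types, and knockout replicates 2 and 3 alone carried signal of Xist, the RNA of the inactive X chromosome (1828 and 1410 against at most 47). The epithelial marker Epcam was bright in every array (4308 to 5041). In a whole organ, fewer cells of a type and less RNA per cell cannot be told apart.

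Lysosomal hydrolases are made in the endoplasmic reticulum, tagged with mannose 6-phosphate in the Golgi and carried by receptors to the acidic compartment where they work. Before weaning, enterocytes of the rodent ileum take up proteins and other macromolecules from the lumen by apical endocytosis and digest them in large lysosomal vacuoles, because digestion in the lumen is still immature. Many lysosomal genes share a short promoter element bound by transcription factors of the TFEB family.

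Most of these genes fell in the knockout. A gene was represented by its brightest tested probe set and was called where limma's adjusted p was under 0.05. Of the 44 tested genes, 27 (61.4%) were called lower and 1 higher, and 16 were not called. Among all 12838 tested genes, 8.5% were called lower and 6.6% higher. Among the 2696 tested genes at least as bright as the median of the 44, 14.5% were called lower. The median log2 fold change of the 44 genes, knockout over wild-type, was -0.72, beside 0.03 over all tested genes, and 41 of 44 were negative. In 26 of the 44 genes every knockout signal lay below every wild-type signal, as in 11.1% of all tested genes, and in 1 gene every knockout signal lay above, as in 8.88%. At least 2-fold lower calls were made for 12 of the 44 genes, at least 3-fold for 7 and at least 4-fold for 4, against 2.7%, 1.09% and 0.615% of all tested genes.

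**Figure D1:**
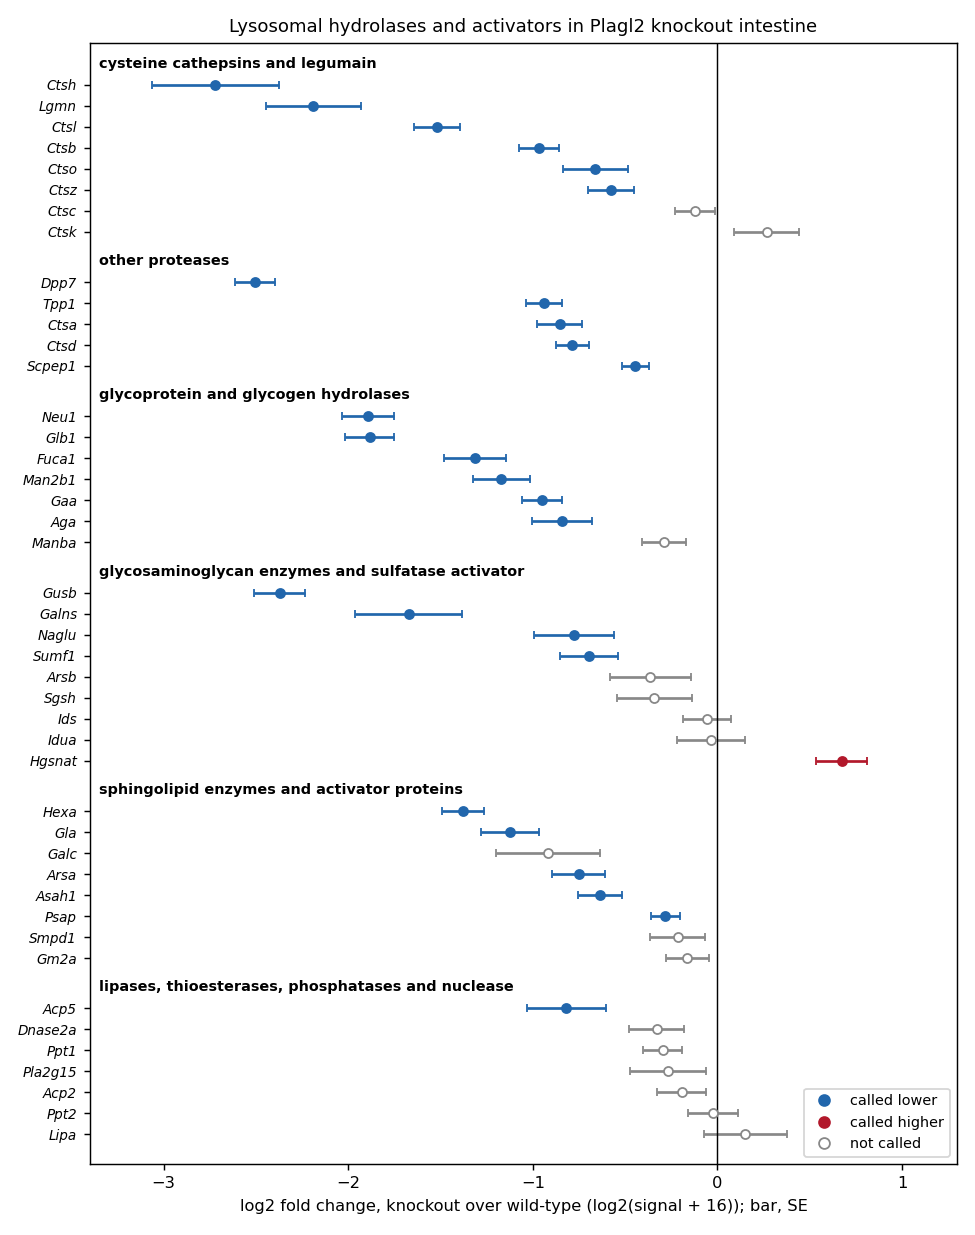
Log2 fold change (knockout over wild-type, on log2(signal + 16)) of the 44 tested genes, ordered within 6 groups by function; points are limma estimates from 4 against 4 arrays and bars are standard errors. The 27 genes called lower are filled blue, the 1 called higher (Hgsnat) red, and the 16 not called are open; Ctsh is lowest at -2.72.

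At the level of single probe sets, 44 of 82 were called lower and 1 higher, against 6.7% and 5.28% of all 27022 tested probe sets. The groups did not overlap in 44 of the 82 with the knockout lower and in 1 with the knockout higher, against 9.26% and 7.7% of all. Of 28 genes with more than 1 tested probe set, 9 had all of them called lower, 8 had calls on some only, 11 had none called and 0 had calls in opposite directions. Cathepsin B showed all 5 of its probe sets called lower.

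The base sequences before the start sites of the most strongly lowered genes are shown because genes of this kind share the TFEB family element, an E-box with the core CACGTG. Promoter windows came from RefSeq (build GRCm38.p6), in which 40 of the 46 genes had an entry. Ctsh, the gene with the lowest log2 fold change, had none, nor had Ctsb, Aga, Asah1, Galns and Hgsnat. The 250 bases before the start are given 5′ to 3′ along the gene's strand for the next lowest genes, Dpp7 (chr2:25356333-25356582, minus strand), Gusb (chr5:130003050-130003299, minus strand) and 1 of the start sites of Lgmn (chr12:102439093-102439342, minus strand), with the core in capitals.
Dpp7: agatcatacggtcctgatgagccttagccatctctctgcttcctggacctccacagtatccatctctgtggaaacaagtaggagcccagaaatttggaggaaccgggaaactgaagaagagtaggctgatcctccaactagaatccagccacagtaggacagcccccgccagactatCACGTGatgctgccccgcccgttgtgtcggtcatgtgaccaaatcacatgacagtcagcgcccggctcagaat
Gusb: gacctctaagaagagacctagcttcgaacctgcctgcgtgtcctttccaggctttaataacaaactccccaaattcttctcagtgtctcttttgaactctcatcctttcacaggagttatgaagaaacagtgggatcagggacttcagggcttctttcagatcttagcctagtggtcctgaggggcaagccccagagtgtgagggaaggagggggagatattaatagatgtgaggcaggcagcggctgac
Lgmn: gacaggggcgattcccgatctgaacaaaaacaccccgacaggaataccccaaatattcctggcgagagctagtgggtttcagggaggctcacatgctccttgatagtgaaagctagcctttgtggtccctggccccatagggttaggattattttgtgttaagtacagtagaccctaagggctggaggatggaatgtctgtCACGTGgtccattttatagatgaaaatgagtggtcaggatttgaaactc
Dpp7 held the core 73 bases before its start and Lgmn 49 bases before. The letters were not found in the window of Gusb, nor before the other start site of Lgmn in the table (chr12:102439729-102439978), which is not printed.

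Over the 40 genes with an entry, 13 (32.5%) held CACGTG in a window of 300 bases (250 before and 50 after the start, any window of a gene counting), against 8.09% of all 27025 genes in the table. The core reads the same on both strands. The longer form TCACGTG, which contains the core and was searched on both strands, was found in 11 of the 40 (27.5%) and in 4.29% of all genes. Of the 22 genes called lower with an entry, 11 held the core, and of the other 18, which include Ctsf and Hyal1 without a test, 2 did, namely Ctsf and Sgsh. For comparison, the core was held by 156 of 870 genes called lower among all tested genes with an entry (17.9%) and by 10.8% of the 9486 others. No test was made of these shares. The sites of the 13 genes are shown with 10 bases on each side, read along the gene's strand, at the position nearest to the start among those before it. They lay 11 to 236 bases before it. Ctsd and Gla each held a further core farther before the start, and Ctsa held one 6 to 11 bases after its start.
Dpp7: gccagactatCACGTGatgctgcccc
Lgmn: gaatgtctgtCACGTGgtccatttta
Glb1: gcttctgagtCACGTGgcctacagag
Ctsl: cgttagaagcCACGTGctgatctaaa
Gla: agatctcggtCACGTGagcaactctc
Gaa: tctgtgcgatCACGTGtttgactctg
Ctsa: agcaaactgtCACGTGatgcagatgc
Ctsd: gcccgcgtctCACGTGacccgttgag
Naglu: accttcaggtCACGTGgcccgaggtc
Arsa: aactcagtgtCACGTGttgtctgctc
Sumf1: caccacaggtCACGTGatctccatgg
Sgsh: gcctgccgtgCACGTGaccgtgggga
Ctsf: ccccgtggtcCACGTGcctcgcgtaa
The first 11 belong to genes called lower, Sgsh was not called and Ctsf was not tested. The 26-base sites were chosen for display after the values were seen. A site reported for the PLAG family (GGGGC or GAGGC, then 6 to 8 bases of any kind, then GGG, on either strand) was found in 13 of the 40 genes (32.5%), in 7 of the 22 called lower and in 6 of the other 18, and in 24.7% of all genes in the table. Among tested genes with an entry it was found in 41.8% of those called lower and 38.2% of the others. These are matches of letters only.

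Among the cysteine cathepsins and legumain, 6 of 8 tested genes were called lower and 0 higher, with a median log2 fold change of -0.81. The shares among all tested genes were 8.5% and 6.6%. Cathepsin H, an aminopeptidase that also cleaves within chains, had signals of 1357, 1471, 404 and 1636 in wild-type replicates 1 to 4 and 137, 170, 155 and 139 in knockout replicates 1 to 4. The groups did not overlap, although wild-type replicate 3 lay far below the other wild-types. The means of 1217 ± 554 and 150.2 ± 15.4 (SD, n = 4) differed 8.1-fold, and Ctsh fell by 2.72 on the log2 scale (SE 0.35, adjusted p = 0.000281). Without wild-type replicate 3 its log2 fold change was -3.18. Its other probe set gave 643, 665, 180 and 710 against 69, 81, 50 and 73, with the same low wild-type sample.

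Legumain, an asparaginyl endopeptidase that also processes cathepsins, likewise had its lowest wild-type signal in replicate 3. Lgmn gave 2239, 2187, 828 and 1978 in the wild-type and 343, 377, 359 and 349 in the knockout samples. It fell by 2.19 (SE 0.26, adjusted p = 0.000152), a 5.06-fold difference between means. The knockout samples lay close together, and the groups did not overlap. Cathepsin L, a broad endopeptidase, was bright throughout, at 6360, 6984, 4405 and 6307 against 2067, 2100, 2160 and 1925 (log2 fold change -1.52, SE 0.12, adjusted p = 1.03e-05). Its knockout signals had a 2.92-fold lower mean, with no overlap.

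Cathepsin B, an endopeptidase that also removes dipeptides from the carboxyl end, differed in size between its probe sets. The brightest gave 5670, 6582, 4471 and 5855 in the wild-type and 2875, 2696, 3065 and 2797 in the knockout samples, for a log2 fold change of -0.97 (SE 0.11, adjusted p = 0.000104). The other 4 gave -0.70, -0.95, -1.26 and -1.99, the means of the last being 627.8 and 142.2. All 5 were without overlap between genotypes, and the gene's fold change therefore depends on which probe set represents it. Ctso gave 1001, 1011, 603 and 1180 against 565, 544, 666 and 542, so the groups overlapped through wild-type replicate 3 and knockout replicate 3. Its log2 fold change was -0.66 (adjusted p = 0.0291). That call was lost on leaving out any of 6 arrays (wild-type 1, 2 or 4, knockout 1, 2 or 4, adjusted p = 0.0597 to 0.09), and a dimmer probe set of Ctso was at 0.22 (adjusted p = 0.424).

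Cathepsin Z, a carboxypeptidase, fell by 0.58 (adjusted p = 0.0101) from a mean of 6753 to 4524, and its other probe sets had log2 fold changes of -0.91 and -1.06. The lowest wild-type signal of the brightest probe set, 5420 in replicate 3, lay just under the highest knockout signal, 5435. Cathepsin C, which activates serine proteases of leukocyte granules, had -0.12 (95% interval -0.36 to 0.11, adjusted p = 0.523). Cathepsin K, the collagen-degrading enzyme of osteoclasts, had 0.27 (-0.11 to 0.65, adjusted p = 0.376) with dim signals of 37 to 44 against 44 to 74. Neither was called.

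All 5 other proteases were called lower and did not overlap between genotypes (median log2 fold change -0.86), beside 8.5% and 11.1% of all tested genes. Dipeptidyl peptidase 7, which removes dipeptides from the amino end, had the smallest p of all 44 genes. Dpp7 gave 1299, 1465, 1081 and 1388 in the wild-type and 207, 219, 216 and 222 in the knockout samples. The knockout values were nearly equal, and the means differed 6.06-fold (log2 fold change -2.50, SE 0.11, adjusted p = 1.06e-07). A second probe set gave 893, 987, 746 and 873 against 88, 137, 117 and 111 (log2 fold change -2.79), and a further, dim one was not called (-0.33, adjusted p = 0.357).

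Tripeptidyl peptidase 1, the enzyme lost in a childhood neuronal storage disease, gave 3045, 3271, 2596 and 2931 against 1352, 1491, 1699 and 1608. Tpp1 was thereby 1.93-fold lower (log2 fold change -0.94, SE 0.10, adjusted p = 6.29e-05), and its other probe set gave -0.96. Cathepsin A, a serine carboxypeptidase that also holds sialidase and beta-galactosidase in a stable complex, gave 4543, 4690, 3359 and 4027 against 2069, 2197, 2792 and 2095 (log2 fold change -0.86, adjusted p = 0.000687). A probe set of Ctsa with signals under 100 was not called (-0.46, adjusted p = 0.128). The aspartic protease cathepsin D gave 1563, 1650, 1353 and 1525 against 820, 841, 928 and 914 (log2 fold change -0.79, SE 0.09, adjusted p = 0.000136). Scpep1, a serine carboxypeptidase, fell least of the 5, from 4519 to 3313 (log2 fold change -0.44, adjusted p = 0.00149).

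**Figure D2:**
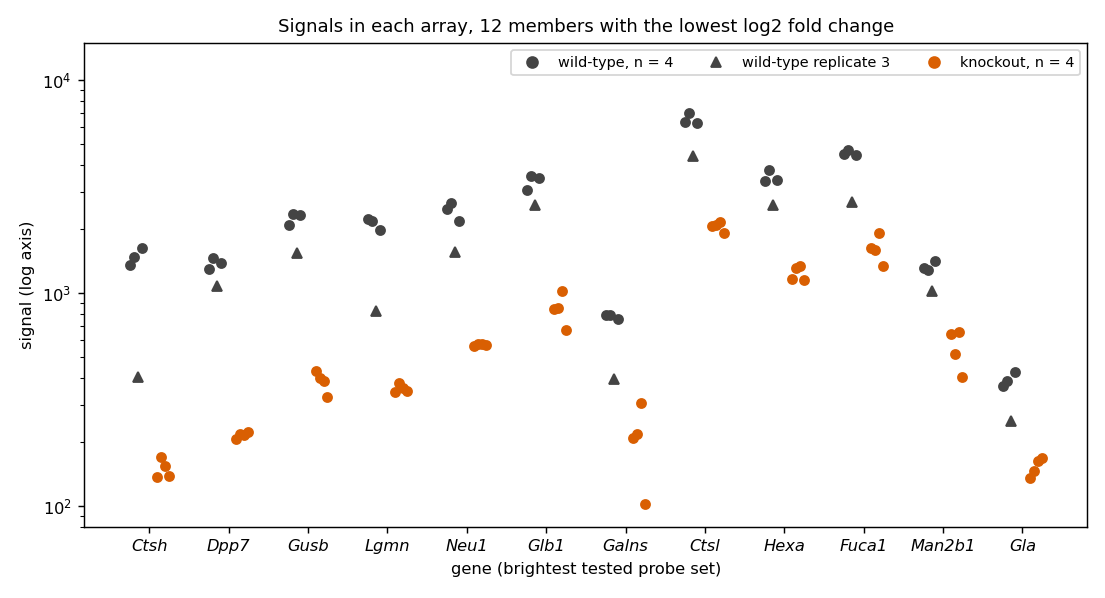
Signals (log axis) in each of the 8 arrays for the 12 genes with the lowest log2 fold change; dark grey, wild-type, orange, knockout, and the triangle marks wild-type replicate 3. In each of the 12 the 4 knockout arrays lie below the 4 wild-type arrays, and the triangle is the lowest wild-type point.

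The enzymes that take apart glycoproteins and glycogen were called lower in 6 of 7 cases, beside 8.5% of all tested genes. In all 7 the knockout lay lower without overlap, as in 11.1% of all (median log2 fold change -1.17). Sialidase 1, which removes terminal sialic acid, gave 2471, 2644, 1568 and 2184 in the wild-type and 567, 577, 580 and 573 in the knockout samples. The knockout signals of Neu1 were nearly equal to each other, and the log2 fold change was -1.89 (SE 0.14, adjusted p = 4.71e-06). A second probe set gave -1.07 (adjusted p = 0.009), and a further one, with signals of 4 to 48, was not called (0.25, adjusted p = 0.701). Beta-galactosidase, the partner of sialidase and cathepsin A, gave 3058, 3533, 2582 and 3458 against 841, 849, 1020 and 675 (Glb1, log2 fold change -1.88, SE 0.13, adjusted p = 3.19e-06). The 3 genes of this complex thus differed by 3.86-fold (Neu1), 3.73-fold (Glb1) and 1.82-fold (Ctsa) between group means.

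Alpha-L-fucosidase, which removes fucose, gave 4524, 4690, 2690 and 4477 against 1622, 1588, 1910 and 1340. Fuca1 fell by 1.31 (SE 0.17, adjusted p = 0.000299), with wild-type replicate 3 lying well below the others, and its other tested probe sets gave -1.44 and -1.59. The lysosomal alpha-mannosidase gene Man2b1 gave 1310, 1288, 1026 and 1417 against 644, 517, 658 and 406 (log2 fold change -1.17, SE 0.15, adjusted p = 0.000356). Averaged with its dim second probe set, Man2b1 stood at -0.83 (adjusted p = 0.0532). Acid alpha-glucosidase, which degrades glycogen, fell from a mean of 525 to 264.2 (Gaa, log2 fold change -0.95, adjusted p = 0.000141). Aspartylglucosaminidase, which splits the sugar from asparagine, fell from 416 to 226.8 (Aga, log2 fold change -0.84, adjusted p = 0.00472). The call of Aga ended when Xist was a covariate (log2 fold change -0.65, adjusted p = 0.0594). It ended too when the arrays with Xist signal, which are knockouts, were left out (-0.66, adjusted p = 0.0625). With the control ratio described at the end in the fit it was also lost (-0.77, adjusted p = 0.124). Beta-mannosidase had -0.29 (Manba, 95% interval -0.55 to -0.03, adjusted p = 0.153) and was not called, although its knockout signals (154 to 175) lay below its wild-type signals (182 to 232).

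Enzymes of glycosaminoglycan breakdown were divided: of 9 tested, 4 were called lower and 1 higher, against 8.5% and 6.6% of all tested genes. Their median log2 fold change was -0.36. Beta-glucuronidase, which removes glucuronic acid, gave 2085, 2363, 1543 and 2318 in the wild-type and 429, 399, 386 and 326 in the knockout samples. Gusb fell by 2.37 (SE 0.14, adjusted p = 8.83e-07), a 5.4-fold difference, and its second probe set by 2.27 (5.26-fold). The groups did not overlap, with wild-type replicate 3 the lowest of its group. Galns, the sulfatase that acts on keratan and chondroitin sulfate, gave 790, 791, 396 and 757 against 209, 219, 306 and 102 (log2 fold change -1.67, SE 0.29, adjusted p = 0.00253). Here wild-type replicate 3 lay nearer to knockout replicate 3 than to the other wild-types.

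Naglu, an N-acetylglucosaminidase of heparan sulfate breakdown, gave 151, 108, 87 and 160 against 64, 63, 97 and 45. The groups overlapped, the log2 fold change was -0.78 (adjusted p = 0.039), and the call was lost on leaving out any of 6 arrays (wild-type 1, 2 or 4, knockout 1, 2 or 4, adjusted p = 0.0667 to 0.119). Sumf1, the activator that converts a cysteine in all sulfatases to their catalytic residue, gave 459, 483, 307 and 487 against 264, 253, 299 and 220 (log2 fold change -0.70, SE 0.15, adjusted p = 0.0116). Its second probe set had -0.62 and missed the threshold (adjusted p = 0.0623).

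Hgsnat was the single gene called higher. It encodes a membrane acetyltransferase of heparan sulfate breakdown and is thus not a soluble hydrolase. Its signals were 130, 112, 124 and 134 in the wild-type and 218, 234, 230 and 160 in the knockout samples, with no overlap (1.68-fold higher mean, log2 fold change 0.67, SE 0.14, adjusted p = 0.00735). The 2 highest values, in knockout replicates 2 and 3, belong to the samples with Xist signal, but knockout replicate 1, without it, gave 218. When Xist was a covariate Hgsnat stood at 0.53 (adjusted p = 0.0824), and on leaving out the arrays with Xist signal at 0.53 (0.0906). With the ratio of 3' to 5' controls in the fit it stood at 0.58 (0.18). It was called in none of these fits. Xist signal was present in knockouts only, so Xist and genotype cannot be fully told apart here.

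The other heparan and dermatan sulfate enzymes were not called. Iduronate sulfatase (Ids) had -0.06 (95% interval -0.34 to 0.23), alpha-L-iduronidase (Idua) -0.04 (-0.44 to 0.37), sulfamidase (Sgsh) -0.34 (-0.78 to 0.10) and arylsulfatase B (Arsb) -0.36 (-0.84 to 0.11), all on the log2 scale. The intervals of Idua, Sgsh and Arsb are wide, and signals of Idua and Sgsh did not exceed 100 in any array. Without wild-type replicate 3 and knockout replicate 4 together, Arsb was called at -0.64 (adjusted p = 0.045).

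Among 8 enzymes and activator proteins of sphingolipid breakdown, 5 were called lower and 0 higher, all 8 were negative and 6 were without overlap (median log2 fold change -0.69). Of all tested genes, 8.5% were called lower and 11.1% lay lower without overlap. Hexa, the alpha subunit of beta-hexosaminidase that degrades ganglioside GM2, gave 3369, 3774, 2588 and 3382 in the wild-type and 1170, 1312, 1341 and 1152 in the knockout samples (log2 fold change -1.38, SE 0.11, adjusted p = 1.08e-05). Its cofactor, the GM2 activator, did not pass: Gm2a had -0.16 (95% interval -0.42 to 0.09, adjusted p = 0.426), with signals of 190 to 244 against 168 to 190. Alpha-galactosidase A, an X-linked enzyme, gave 368, 386, 251 and 428 against 136, 147, 163 and 168. Gla fell by 1.12 (SE 0.16, adjusted p = 0.000547), and the knockout samples with Xist signal, at 147 and 163, lay between the other knockouts. A dimmer probe set of Gla was at -0.81 (adjusted p = 0.0625).

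Arylsulfatase A, which degrades sulfatide, gave 690, 769, 494 and 792 against 376, 387, 448 and 372 (Arsa, log2 fold change -0.75, adjusted p = 0.0048). Acid ceramidase gave 1044, 1106, 1111 and 1174 against 643, 708, 611 and 897 (Asah1, log2 fold change -0.64, adjusted p = 0.00379), and here wild-type replicate 3 lay among the other wild-types. With the same control ratio in the fit Asah1 was at -0.48 (adjusted p = 0.168). Prosaposin, the precursor of the saposins that present lipids to several of these enzymes, differed little. Psap gave 2079, 2193, 1917 and 2142 against 1582, 1763, 1688 and 1809, without overlap but with a log2 fold change of only -0.28 (adjusted p = 0.0406). That call was lost on leaving out any of 6 arrays (wild-type 1, 2 or 4, knockout 1, 2 or 3, adjusted p = 0.0586 to 0.126).

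Galactosylceramidase, which degrades the main lipid of myelin, had dim signals of 60, 133, 51 and 100 against 50, 20, 29 and 49. Galc had -0.92 (95% interval -1.53 to -0.30, adjusted p = 0.0557) and was called without wild-type replicate 3 (0.0236) or knockout replicate 4 (0.0496). Acid sphingomyelinase had -0.22 (Smpd1, -0.54 to 0.11, adjusted p = 0.411).

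Lipases, thioesterases, phosphatases and the nuclease were called lower in 1 of 7 cases (14.3%), with a median log2 fold change of -0.27. That share was near those of all tested genes (8.5%) and of genes at least as bright as the median of the 44 (14.5%). The gene called was Acp5, a tartrate-resistant acid phosphatase typical of osteoclasts and macrophages. Acp5 gave 837, 926, 541 and 955 in the wild-type and 472, 384, 648 and 330 in the knockout samples (log2 fold change -0.82, adjusted p = 0.0271). The groups overlapped through wild-type replicate 3 and knockout replicate 3, and the call was lost on leaving out any of 6 arrays (wild-type 1, 2 or 4, knockout 1, 2 or 4, adjusted p = 0.0556 to 0.0869).

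Lysosomal acid lipase, which frees fatty acids and cholesterol from endocytosed lipoproteins, was not called by any of its 3 probe sets. Lipa gave 890, 919, 511 and 1237 against 940, 1031, 1136 and 719, with a log2 fold change of 0.15 (95% interval -0.34 to 0.64, adjusted p = 0.729). Its spread within each genotype was larger than the difference between them. Palmitoyl-protein thioesterase 1 gave 518, 513, 493 and 554 against 368, 460, 393 and 465 (Ppt1, log2 fold change -0.30, adjusted p = 0.0966). A dimmer probe set of Ppt1 (303, 336, 275 and 423 against 221, 266, 180 and 217) was called lower at -0.56 (adjusted p = 0.0331), so the call for this gene differs with the probe set. Acid phosphatase 2 (Acp2) had -0.19 (-0.48 to 0.09), the phospholipase Pla2g15 -0.27 (-0.72 to 0.18), deoxyribonuclease II alpha (Dnase2a) -0.33 (-0.66 to -0.001) and the thioesterase Ppt2 -0.02 (-0.32 to 0.27), none of them called. Dnase2a was called without knockout replicate 4 (-0.46, adjusted p = 0.043).

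The position of wild-type replicate 3 was shared by most of the lowered genes. Of the 27, 25 had their lowest wild-type signal in that array, Aga and Asah1 being the others. Over the 27 genes its median deviation from the other 3 wild-types was -0.43 on the log2 scale. On the line from the knockout mean to the mean of the other wild-types it lay at a median of 60% of the distance, from 7.14% for Ctso to 86.5% for Dpp7 among those 25. The mean log2 signal of the 44 genes was 9.52, 9.56, 9.14 and 9.55 in the wild-type and 8.65, 8.62, 8.69 and 8.61 in the knockout samples. In the same array the mean log2 signal of 7 mesenchyme genes reached 10.86, where the other wild-types had 10.26 to 10.55, and that of 6 smooth muscle genes was 10.37 against 9.60 to 10.02. The part of tissue composition in this was not tested. Without wild-type replicate 3, 28 genes were called lower (10.3% of all tested genes) and the median log2 fold change was -0.84, and all 27 of the genes above were among them. On the knockout side replicate 3 held the highest signal in 17 of the 27. Its mesenchyme mean of 10.38 and smooth muscle mean of 9.85 were the lowest of the knockouts. The other knockouts had 10.84 to 11.18 and 10.43 to 10.76. The part of tissue composition was not tested here either.

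**Figure D3:**
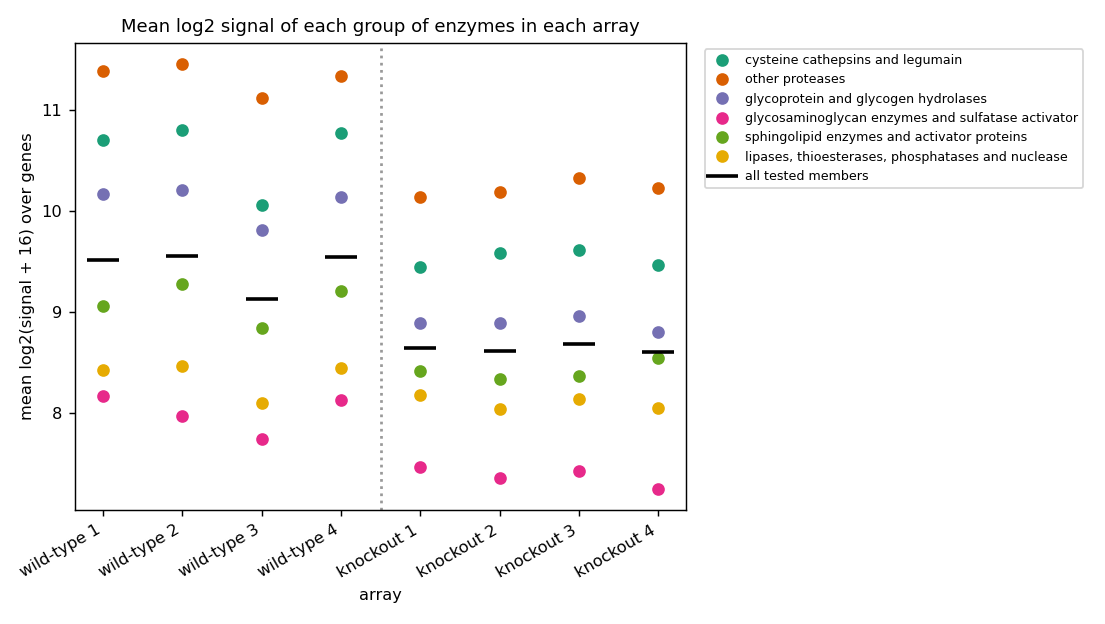
Mean log2(signal + 16) over the tested genes of each of 6 enzyme groups in each array, with the mean over all 44 genes as a bar; heights of different groups are not comparable, since probe sets differ in brightness. The mean of all 44 genes is 9.52 to 9.56 in wild-type replicates 1, 2 and 4, 9.14 in wild-type replicate 3 and 8.61 to 8.69 in the knockouts.

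Other genes of the lysosome moved in part with the hydrolases. The counts below stand beside 8.5% of all tested genes called lower and 6.6% called higher. Of 15 further soluble lysosomal proteins tested, 5 were called lower and 0 higher (median log2 fold change -0.25), among them the fucosidase Fuca2 (-1.34, adjusted p = 0.00125), the sialate esterase Siae (-0.85), the mannosidase Man2b2 (-0.80) and the phosphodiesterase Smpdl3a (-0.65). Of 11 membrane proteins and regulators, 6 were called lower and 0 higher (median -0.42). The sialic acid exporter Slc17a5 (-3.89), Cln3 (-1.57), the cystine exporter Ctns (-1.32) and the cation channel Mcoln1 (-1.03) were among them. Tfeb, a transcription factor that binds the E-box element, was also called lower. Named after its values were seen, it gave 137, 191, 129 and 136 against 77, 61, 69 and 32 (log2 fold change -1.14, SE 0.21, adjusted p = 0.00352). Its relatives Tfe3 (-0.06, adjusted p = 0.836) and Mitf (-0.37, adjusted p = 0.304) were not called.

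The genes that tag and sort hydrolases divided. Igf2r, the large mannose 6-phosphate receptor, gave 1453, 1473, 1209 and 1374 against 561, 624, 652 and 627 (log2 fold change -1.14, SE 0.09, adjusted p = 1.15e-05). Sortilin (Sort1), an alternative sorting receptor, gave 162, 156, 196 and 121 against 333, 366, 340 and 294 and was called higher (1.01, SE 0.14, adjusted p = 0.000548). The small receptor M6pr stood at 0.02 (95% interval -0.22 to 0.26), and the tagging enzyme genes Gnptab, Gnptg and Nagpa had -0.33, -0.33 and -0.32 and were not called. Of 3 tested cathepsin inhibitor genes, Cst6 (-2.90, adjusted p = 0.00042) and Cstb (-0.83, adjusted p = 0.0025) were called lower, while Cst3 had 0.26 (adjusted p = 0.106). Of 6 genes of apical uptake, 5 were called lower, among them Mamdc4 (-6.39), Fcgrt (-3.83), Lrp2 (-2.53) and Amn (-1.15). Lrp2 was very dim in the knockout samples (5 to 14). Cubn, with means of 2516 and 2395, was not called (-0.06, adjusted p = 0.89). Counts of these small lists, beside 8.5% lower and 6.6% higher calls among all tested genes, were not tested against each other.

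**Figure D4:**
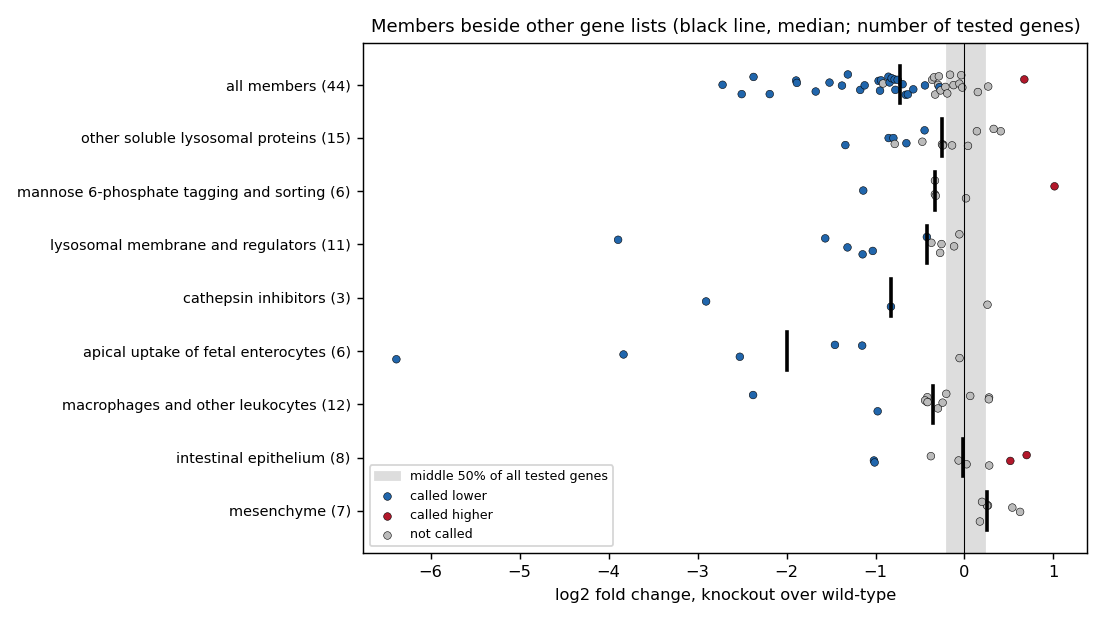
Log2 fold change of each tested gene (points; blue called lower, red called higher, grey not called) in the 44 hydrolase and activator genes and in 8 other lists, with the median of each list as a black line and the middle 50% of all tested genes (-0.20 to 0.23) shaded. The median of the 44 genes is -0.72, that of 11 lysosomal membrane and regulator genes -0.42 and that of 8 epithelial genes -0.02.

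Markers of cell types that are rich in lysosomes or share the tissue were measured beside these genes. Calls are to be read beside 8.5% of all tested genes called lower and 6.6% called higher. Of 12 macrophage and leukocyte genes, 2 were called lower (Csf1r at -2.38 and Adgre1 at -0.98) and 0 higher, and their summed signal was 4780 to 6387 in the wild-type and 2108 to 2936 in the knockout samples. Without Csf1r the sum was 1906 to 2116 against 1445 to 2078, with overlap only through knockout replicate 4 (other knockouts 1445 to 1610). The median log2 fold change of the 12 was -0.36, with 9 negative and 3 positive. In 4 of them (33.3%) every knockout signal lay below every wild-type signal, beside 11.1% of all tested genes.  Of 8 epithelial genes 2 were called lower, Krt18 (-1.02) and Cdx1 (-1.01), and 2 higher, Krt19 (0.70) and Krt8 (0.515). Their summed signal, in which Epcam and Krt8 were the brightest genes, was 18620 to 21520 against 19370 to 25400. Epcam had -0.07 (95% interval -0.21 to 0.08) and was not called. Of 7 mesenchyme and 6 smooth muscle genes 0 were called (median log2 fold changes 0.25 and 0.50). All 7 and all 6 were positive, as were 6839 of 12838 tested genes. The summed signals were 10720 to 15740 against 11650 to 19350 and 7681 to 13320 against 9844 to 16110. Of 6 pancreatic acinar and 2 tested erythroid genes 0 were called (summed signals 886 to 3389 against 799 to 4803 and 202 to 403 against 252 to 793). The erythroid sums also hold Hba-a1 and Hbb-bh1, which were too dim to be tested. None of the 43 marker genes with a probe set was at 0 in all arrays, which does not show that each was detected. Hba-a1 gave only 3 to 39 and Hbb-bh1 3 to 14. The part of cell composition in the lower hydrolase signals was not tested.

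Control probe sets at the 3' and 5' ends of the same transcripts give a sign of RNA quality. Their mean log2 ratio, 3' over 5', was -0.02 ± 0.03 in the wild-type and 0.05 ± 0.04 in the knockout samples (SD, n = 4, exact two-sided permutation p = 0.0286, the smallest possible). Gapdh alone overlapped between genotypes (-0.47 to -0.37 against -0.40 to -0.31), as did actin (0.33 to 0.46 against 0.38 to 0.51). Since the mean ratio did not overlap, it and genotype cannot be fully told apart in a fit with both terms. Adding this ratio to the fit left 21 of the 44 genes called lower, with a median of -0.86, and 4.43% of all tested genes. Adding Xist left 23 (5.95% of all), and leaving out its 2 arrays left 24 (6.25% of all). Those 2 arrays are knockouts, so Xist and genotype cannot be fully told apart.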

How the data were processed

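The deposited values are linear signal intensities of 45101 probe sets in 4 wild-type and 4 knockout arrays. The authors' scaling is already in these intensities, since every array has a mean of about 150.05 after trimming 2% at each end. The signal algorithm is not given in the sources used here. Control probe sets (64) were left out. Signals were taken as log2(signal + 16), which makes fold changes of dim genes smaller than ratios of raw signal. The 40% of probe sets with the lowest mean (signal under about 23) were left out. All 27022 others were fitted with limma 3.58.1 in R 4.3.3 (intensity trend, genotype as the only term) and adjusted by Benjamini-Hochberg over all of them. The number of arrays limits the precision.

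The genes, gene lists and tests were chosen with earlier results of these data known. Every gene is named. Signals in every array are given for up to 4 called genes per function with the largest change, for genes called higher and for genes whose probe sets disagree. From other lists up to 4 called genes with the smallest p are named, and other genes of those lists were named after their values were seen. The fit was checked on simulated data of known answer. Alternatives were other filters, offsets and normalization, array weights, no trend, covariates, the replicate number as a block, averaging a gene's probe sets, and leaving out each array. Added after seeing the data were the 6 arrays without Xist signal, and leaving out wild-type replicate 3 with knockout replicate 4.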

Additional observations from a re-analysis of the deposited data

Results flagged for a closer look

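In 6 of 88 groups of 4 arrays (44 genes in 2 genotypes), 1 array was separated from the other 3 by more of the group's log2 range than Dixon's 95% limit, and chance flags about 1 in 20 groups. Of these, 5 concerned wild-type replicate 3 as the lowest array. It gave 404 for Ctsh (others 1357 to 1636), 828 for Lgmn (1978 to 2239), 396 for Galns (757 to 791), 2690 for Fuca1 (4477 to 4690) and 307 for Sumf1 (459 to 487). The other was Sgsh, at 73 in knockout replicate 1 against 48 to 50. The cause was not tested.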

How the results depend on the processing

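Over 21 alternatives, 18 of the 27 lower genes stayed called in all of them, and no call turned to the opposite direction. Calls of Acp5, Naglu, Ctso, Psap, Aga, Sumf1, Ctsz, Asah1 and Man2b1 ended in at least 1. The number called lower was 21 with the replicate number as a block (5.49% of all tested genes), 25 with no filter (7.38%) and 28 with array weights (12%), beside 27 (8.5%) as reported. With 1 array left out, genes called lower numbered 23 to 28 (6.08% to 10.3% of all), probe sets called higher 1 to 2, and the median log2 fold change was -0.84 to -0.65. Without wild-type replicate 3 and knockout replicate 4 together, 31 were lower (10.7% of all). The number called higher, genes as well as probe sets, was 0 when Xist or the ratio of 3' to 5' controls entered the fit, and 0 when the 2 arrays with Xist signal were left out. In the replicate block fit the calls of Sumf1 (adjusted p = 0.0617) and Ctsz (0.0504) ended. Those of Acp5 (0.111), Naglu (0.129), Ctso (0.0937) and Psap (0.132) ended there too. The numbers do not pair the samples: deviations of same-numbered samples correlated at -0.27 to -0.01, and 0 of 8 arrays correlated best with their own number. The intervals of the dim genes Idua, Sgsh and Ctsk are wide and include 0. The cause of these shifts was not tested.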

Other observations

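The lowered genes varied more between wild-type than between knockout samples, and this rested on 1 array. Over the 27 genes the median SD of log2 signals was 0.233 in the wild-type and 0.137 in the knockout samples, and the wild-type SD was the larger in 19. Without wild-type replicate 3 the wild-type median was 0.0943, and the wild-type SD was the larger in 7. In the 16 genes not called the medians were 0.173 and 0.208.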
